A study of Mus musculus with 20 samples.

Results

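The Jα segments of the T cell receptor α locus are short exons, and in the deposited table of group averages they were the rows whose gene identifier maps to a mouse symbol beginning with Traj. There were 59 such rows among 39179, and 37607 of all rows had a symbol. The segments were followed here as shares of the summed Traj level of a group, in order of segment number.

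RNA was sequenced from 20 samples of C57BL/6 mice in 5 groups, all of T cells sorted as TCRβ-positive. The Id2-/-Id3-/- CD4SP cells (3 samples) were thymocytes sorted as CD4-positive and CD8-negative from mice with floxed Id2 and Id3 and a Cre driven from the Il7r locus, which acts from early lymphoid progenitors onward. The Id2-/-Id3-/- lymphomas (6 samples) came from 4 lymph nodes, 1 thymus and 1 spleen and were sorted as CD3-positive cells, 4 of them CD4-positive and 2 CD8-positive. Lymphomas arose in aged mice with any of 3 Cre drivers (from Il7r, Cd4 or distal Lck), and the labels do not say which tumour carried which. These mice were older than those the paper names for the CD4SP thymocytes. The samples labelled Id3 KO (3) and the control samples (5, labelled wild type, and named Id3+/- or littermates in the paper's text and captions) were CD4SP thymocytes of the same sort. The TFH cells (3 samples) came from the spleen of wild-type animals given sheep red blood cells as antigen and were sorted as CD4-positive, CD44-high and CXCR5-positive. Id2 and Id3 encode inhibitors of the E proteins, transcription factors that govern thymocyte development and antigen receptor rearrangement.

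In a developing CD4+CD8+ thymocyte, 1 of the Trav segments is joined to 1 of the Traj segments, and the joined exon is spliced to the constant gene Trac. The locus can rearrange again on the same chromosome, and each further round joins a Trav segment farther upstream to a Traj segment farther downstream, so early rounds use the 5′ end of the Traj cluster (high segment numbers) and late rounds the 3′ end (low numbers, nearest Trac). Segment use is therefore read as a record of how far rearrangement ran. It is also shaped by selection and by the growth of single clones, each of which carries its own segment. Some unconventional T cells have a fixed join: invariant NKT (iNKT) cells of the mouse join Trav11 to Traj18, and MAIT cells join Trav1 to Traj33.

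The cluster lay on the + strand of chromosome 14 in mm10, from 54155005 to 54218842, and spanned 63.8 kb. Traj61, at its 5′ end, was 65.4 kb from Trac, Traj30 was 30.6 kb and Traj2 was 2.62 kb away. GENCODE M21, which uses the same build, annotated 50 of the rows as J genes of 55 to 66 bases and 9 as J pseudogenes. The coding part of a Jα segment holds the codons for a phenylalanine, a glycine, any residue and a further glycine, the turn that closes the third complementarity-determining loop. The segments on which the results below turn are printed here from the GENCODE transcripts, 5′ to 3′ on the + strand, with the bases that match the codons TTN, GGN, NNN and GGN in a row in capitals. Traj2, Traj18, Traj39 and Traj4 led the Id2-/-Id3-/- CD4SP cells, Traj4 and Traj30 led the lymphomas, the reads of Traj17 and Traj21 in Id2-/-Id3-/- CD4SP cells lay mainly in 1 library, and Traj33 is the MAIT segment.
Traj2 (chr14:54217836-54217901): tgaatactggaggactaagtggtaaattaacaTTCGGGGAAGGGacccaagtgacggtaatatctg
Traj4 (chr14:54216291-54216353): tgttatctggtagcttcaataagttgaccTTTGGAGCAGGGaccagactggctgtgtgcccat
Traj17 (chr14:54201775-54201837): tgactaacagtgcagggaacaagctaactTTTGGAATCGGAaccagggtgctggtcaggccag
Traj18 (chr14:54200777-54200842): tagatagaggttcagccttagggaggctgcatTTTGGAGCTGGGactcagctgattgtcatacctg
Traj21 (chr14:54198790-54198846): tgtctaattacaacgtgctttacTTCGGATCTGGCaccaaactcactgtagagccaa
Traj30 (chr14:54189866-54189924): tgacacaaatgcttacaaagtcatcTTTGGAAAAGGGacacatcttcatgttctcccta
Traj33 (chr14:54185358-54185414): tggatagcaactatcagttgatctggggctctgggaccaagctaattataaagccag
Traj39 (chr14:54179962-54180024): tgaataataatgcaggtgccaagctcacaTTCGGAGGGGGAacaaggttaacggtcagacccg

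Searched on the + strand only and in any reading frame, 45 of the 59 segments (76.3%) held a match to this pattern of bases. They were 43 of the 50 J genes and 2 of the 9 pseudogenes. TTN also covers codons of leucine, and Traj38, Traj44 and Traj55 matched with TTG, so a match is not always the codons named above. The pattern was in 1.59% of 32851 windows of 60 bases, the upstream ends of the mouse promoter sequences of RefSeq (GRCm38.p6). Traj33 was 1 of the 7 J genes with no match, and Traj3, Traj19, Traj20, Traj29, Traj41 and Traj59 were the others. The longest run of bases shared by any of the 1770 pairs of segments was 16, between Traj53 and Traj45.

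Each value below is the authors' average of normalized counts over the libraries of a group, without an error, since the table held 0 columns of values per library. The differences were therefore described and not tested. A ratio was taken after adding 1 normalized count to both averages, and a segment was counted as higher or lower where the ratio reached 2-fold. This count covered the 44 segments whose mean over the 5 averages was at least 1. The other 15 segments were low everywhere, with a highest mean of 0.956, and 5 of them, the pseudogenes Traj1, Traj8, Traj14, Traj51 and Traj55, were listed at 0 in all groups. The kept segments were low genes, with a median mean of 5.42 normalized counts against 43.4 for all 22244 kept rows of the table. Of the 43 J genes with a match to the pattern, 41 were kept, and of the 7 with no match only Traj3, Traj19 and Traj33 were.

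The targeted genes were checked first. Id2 averaged 6.82 normalized counts in Id2-/-Id3-/- CD4SP cells, 30.5 in the lymphomas, 1764 in the libraries labelled Id3 KO, 1628 in TFH cells and 2293 in control CD4SP cells. Id3 averaged 879.7 in Id2-/-Id3-/- CD4SP cells, 856.8 in the lymphomas, 2650 in the libraries labelled Id3 KO, 1777 in TFH cells and 1991 in control CD4SP cells. The libraries labelled Id3 KO thus showed no loss of Id3 as a whole-gene value, which cannot show whether the reads came from a targeted allele, and they are named by their label below. Cd4 averaged 6565 normalized counts in Id2-/-Id3-/- CD4SP cells, 4110 in the lymphomas, 12552 in the libraries labelled Id3 KO, 20145 in TFH cells and 15039 in control CD4SP cells. Cd8a averaged 1388 in the lymphomas, against 127.7 in control CD4SP cells, and Cd8b1 460.5 against 587.9. Cxcr5, which the TFH sort selected, averaged 9567 in TFH cells against 44.6 in control CD4SP cells. All 3 measured genes of the γδ T cell list (Sox13, Tcrg-C1, Tcrg-C4) were at least 2-fold higher in Id2-/-Id3-/- CD4SP cells, where 13.9% of all kept rows were. Their summed level was 3014 in Id2-/-Id3-/- CD4SP cells, 1741 in the lymphomas (1 of 3 higher), 447.7 in the libraries labelled Id3 KO (2 of 3), 52.3 in TFH cells (0 of 3) and 214.5 in control CD4SP cells. All 4 B cell genes were at least 2-fold higher in TFH cells, where 10.8% of all kept rows were, with a summed level of 430.6 against 70.7 in control CD4SP cells. In the lymphomas their sum was 510.8, of which Cd79b, the 1 gene higher there, made up 455.5. B cells carry no Jα join and γδ T cells do not depend on one, and the part of these cells in the results below was not tested.

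Behind a low average stand a few whole reads. Every average between 0 and 1 in the table, from 4572 rows in Id2-/-Id3-/- CD4SP cells to 8808 in the lymphomas, was a sum of whole multiples of a few fixed amounts within 7e-05, each the worth of 1 read in 1 library. In Id2-/-Id3-/- CD4SP cells these amounts were 0.568, 0.494 and 0.289 normalized counts, and in TFH cells 0.578, 0.339 and 0.316. Any such sum covered 0.12% of the values between 0 and 1 in Id2-/-Id3-/- CD4SP cells and 0.11% in TFH cells, and 23.3% in the lymphomas, where 6 amounts were found. The libraries labelled Id3 KO gave 3 amounts, and control CD4SP cells gave 4 although 5 libraries are labelled. Whether 1 control library was left out of the average or a pair of libraries held the same amount cannot be told from the table. The libraries of Id2-/-Id3-/- CD4SP and TFH cells are called a, b and c below, in order of the worth of a read, since the amounts do not say which labelled sample each one was. The averages of all Traj segments together rested on 738 to 859 reads in Id2-/-Id3-/- CD4SP cells, 1228 to 1669 in the lymphomas, 994 to 1084 in the libraries labelled Id3 KO, 1049 to 1073 in TFH cells and 1161 to 1520 in control CD4SP cells.

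The summed level of Traj was close among the CD4SP groups and lower in the lymphomas. It was 321.4 normalized counts in Id2-/-Id3-/- CD4SP cells, 183.9 in the lymphomas, 351.5 in the libraries labelled Id3 KO, 401.2 in TFH cells and 348.2 in control CD4SP cells. Per 1000 normalized counts of Trac, the constant gene that every join is spliced to, the Traj level was 43.0 in Id2-/-Id3-/- CD4SP cells, 31.4 in the lymphomas, 43.4 in the libraries labelled Id3 KO, 39.3 in TFH cells and 43.8 in control CD4SP cells. Set against summed Trav instead, it was 66.2 per 1000 in Id2-/-Id3-/- CD4SP cells, 56.2 in the lymphomas, 79.5 in the libraries labelled Id3 KO, 82.8 in TFH cells and 71.5 in control CD4SP cells. In bulk RNA, fewer cells that use a segment and less RNA of it per cell cannot be told apart.

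Traj use was narrower in Id2-/-Id3-/- CD4SP cells than in control CD4SP cells and narrowest in the lymphomas. The effective number of segments, the exponential of the Shannon index, is the number of equally used segments that would give the same diversity. It was 20.0 in Id2-/-Id3-/- CD4SP cells, 4.07 in the lymphomas, 36.7 in the libraries labelled Id3 KO, 38.5 in TFH cells and 39.7 in control CD4SP cells. The 3 most used segments held 42.9% of the Traj level in Id2-/-Id3-/- CD4SP cells, 91.2% in the lymphomas, 17.6% in the libraries labelled Id3 KO, 15.7% in TFH cells and 16.2% in control CD4SP cells. It took 4 segments to reach 50% of the level in Id2-/-Id3-/- CD4SP cells, 2 in the lymphomas, 12 in the libraries labelled Id3 KO, and 13 in both TFH and control CD4SP cells. Of the 59 segments, 13 were listed at 0 in Id2-/-Id3-/- CD4SP cells, 30 in the lymphomas, 10 in the libraries labelled Id3 KO, 12 in TFH cells and 6 in control CD4SP cells, where the reads were also more numerous than in Id2-/-Id3-/- CD4SP cells.

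**Figure D1:**
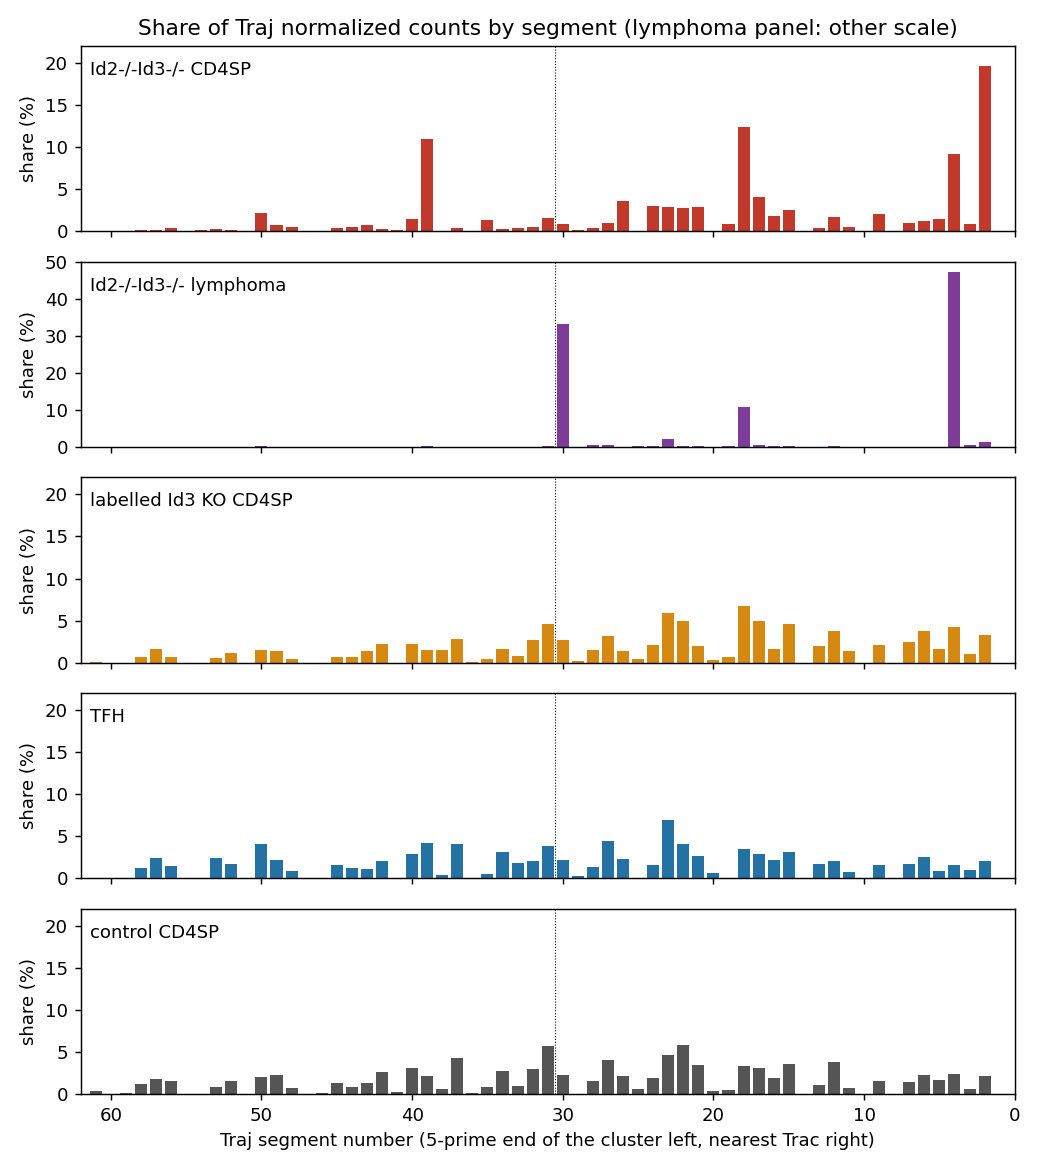
Share of the summed Traj level (percent, y axis) held by each segment, in order of segment number (x axis), 1 panel per group, with bars from the authors' group averages. Traj2 (19.6%), Traj18 (12.3%) and Traj39 (11.0%) lead in Id2-/-Id3-/- CD4SP cells, Traj4 (47.3%) and Traj30 (33.3%) in the lymphomas, whose panel has its own scale, and no segment passes 6.93% in the other groups. The dotted line separates Traj1 to Traj30 from the rest.

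Use also lay nearer the 3′ end of the cluster in Id2-/-Id3-/- CD4SP cells than in control CD4SP cells, and by a smaller margin in the libraries labelled Id3 KO. The paper already reported more transcripts of 3′ Jα elements in Id2-/-Id3-/- CD4SP cells. It saw no obvious difference from control in TCRα rearrangement in TCRβ-negative CD4+CD8+ thymocytes of these mice. It also found that V gene use differed from mouse to mouse. Segments Traj1 to Traj30 held 76.6% of the level in Id2-/-Id3-/- CD4SP cells, 99.1% in the lymphomas, 68.7% in the libraries labelled Id3 KO, 54.6% in TFH cells and 57.2% in control CD4SP cells. The mean segment number weighted by share was 18.9 in Id2-/-Id3-/- CD4SP cells, 15.5 in the lymphomas, 23.7 in the libraries labelled Id3 KO, 29.1 in TFH cells and 27.7 in control CD4SP cells. Counted from Trac, 50% of the level was reached at Traj18 in Id2-/-Id3-/- CD4SP cells, Traj16 in the lymphomas, Traj22 in the libraries labelled Id3 KO and Traj27 in both TFH and control CD4SP cells. The summed shares at the ends of the cluster differed in opposite directions. Traj1 to Traj9 (Traj10 is not among the rows) held 35.2% of the level in Id2-/-Id3-/- CD4SP cells, 49.4% in the lymphomas, 18.5% in the libraries labelled Id3 KO, 11.5% in TFH cells and 12.1% in control CD4SP cells. In Id2-/-Id3-/- CD4SP cells most of this was Traj2 (19.6%, against 2.13% in control CD4SP cells) and Traj4 (9.17% against 2.46%). Of the others, Traj5, Traj6 and Traj7 held less than in control CD4SP cells, and Traj3 and Traj9 more. In the lymphomas Traj4 alone held 47.3%. Traj51 to Traj61 held 1.14% in Id2-/-Id3-/- CD4SP cells, 0% in the lymphomas, 4.80% in the libraries labelled Id3 KO, 9.20% in TFH cells and 7.53% in control CD4SP cells. The middle window, Traj21 to Traj30, held 17.2% in Id2-/-Id3-/- CD4SP cells, 37.5% in the lymphomas, 24.2% in the libraries labelled Id3 KO, 26.1% in TFH cells and 26.8% in control CD4SP cells.

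**Figure D2:**
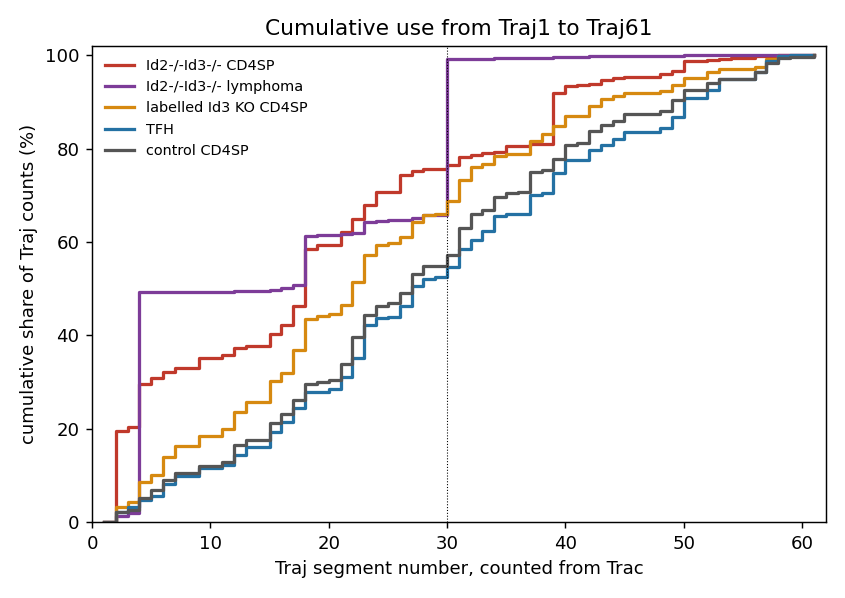
Cumulative share of the Traj level (percent, y axis) from Traj1 to Traj61 (x axis), 1 line per group, from the authors' averages. At the dotted line, Traj30, the lines stand at 76.6% in Id2-/-Id3-/- CD4SP cells, 99.1% in the lymphomas, 68.7% in the libraries labelled Id3 KO, 54.6% in TFH cells and 57.2% in control CD4SP cells, and the lymphoma line is made of steps at Traj4, Traj18 and Traj30.

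The 3′ share of Id2-/-Id3-/- CD4SP cells was also taken without its leading segments. Without Traj2 alone it was 70.9%. Traj2, Traj4, Traj18 and Traj39 were the 4 segments at least 2-fold higher than in control CD4SP cells, and the other 55 segments held 47.9% of the Traj level in Id2-/-Id3-/- CD4SP cells against 89.9% in control CD4SP cells. Among these 55 segments, chosen after the values were seen, the share of the 3′ part was 74.1% in Id2-/-Id3-/- CD4SP cells, 64.7% in the libraries labelled Id3 KO, 53.5% in TFH cells and 54.8% in control CD4SP cells. The effective number over the same 55 segments was 28.5 in Id2-/-Id3-/- CD4SP cells, against 35.8 in control CD4SP cells, nearer to each other than with all segments.

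Segment by segment, Id2-/-Id3-/- CD4SP cells had 4 of the 44 kept segments at least 2-fold higher than control CD4SP cells, where 13.9% of all kept rows were, and 20 at least 2-fold lower, where 10.6% of all kept rows were. The median log2 ratio of the segments was -0.83, against 0.04 over all rows. Of the 23 kept segments up to Traj30, 3 were higher, 5 were lower, and the median log2 ratio was -0.37. A lower average than in control CD4SP cells, by any amount, was found in 14 of the 23. Of the 21 kept segments from Traj31 on, 1 was higher and 15 were lower, with a median of -1.45, and 19 of the 21 had a lower average than in control CD4SP cells. In Traj37, for example, the average was 1.35 normalized counts in Id2-/-Id3-/- CD4SP cells, against 14.9 in control CD4SP cells, a log2 ratio of -2.76. Traj34 averaged 0.86 normalized counts in Id2-/-Id3-/- CD4SP cells against 9.42 in control CD4SP cells, and Traj42 averaged 0.86 against 9.40, both a log2 ratio of -2.49. Traj38, listed at 0 in Id2-/-Id3-/- CD4SP cells, was also counted as lower. With 5 normalized counts added in place of 1, or with a mean of at least 5 required, 8 and 10 segments were lower, and 4 were higher in both cases. The 5′ segments Traj39, at 35.3 normalized counts in Id2-/-Id3-/- CD4SP cells against 7.72 in control CD4SP cells, and Traj35, at 4.22 against 2.92, were the exceptions among the 21. Without library b the higher level of Traj4 in Id2-/-Id3-/- CD4SP cells was under 2-fold, with an average of 13.8 normalized counts and a log2 ratio of 0.63, and that of Traj18 was at least 2-fold (log2 ratio 1.13 or more) without any 1 library. For Traj2 without library c and Traj39 without library a or b, some of the possible read sets gave a ratio under 2-fold (down to log2 0.27 for Traj2 and -0.29 for Traj39).

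In the libraries labelled Id3 KO no kept segment was 2-fold higher or lower than in control CD4SP cells, where 5.14% of all kept rows were higher and 9.29% lower, but the small differences had an order along the cluster. Of the 21 segments from Traj31 on, 19 had a lower average than in control CD4SP cells, with a median log2 ratio of -0.40. Of the 23 segments up to Traj30 only 7 did, with a median of 0.34. For 29 segments of these libraries more than 1 set of reads was possible, so whether 1 library made this order cannot be told. TFH cells had no such order, with 8 of 23 segments up to Traj30 and 6 of 21 from Traj31 on at a lower average than in control CD4SP cells. The 3 segments at least 2-fold higher in TFH cells, Traj39, Traj50 and Traj53, all lay in the 5′ part, and 10.8% of all kept rows were higher in that comparison. The share of the segments was thus under that of all rows, and 0 segments were higher with 5 normalized counts added in place of 1, and 1 when shares within Traj were compared. Traj53 averaged 9.61 normalized counts in TFH cells against 2.89 in control CD4SP cells, and Traj50 averaged 16.3 against 7.10. The higher level of Traj50 rested on 1 of the TFH libraries, with 22, 3 and 8 reads in libraries a, b and c, and without library a its TFH average was 5.32, below the control CD4SP average. Traj39 was under 2-fold without library c (log2 ratio 0.90), and Traj53 was above it without any 1 library. Without library a 5 segments were counted as higher, Traj3 and Traj13 of the 3′ part among them. Traj19, the 1 segment at least 2-fold lower (12.0% of all kept rows were), was listed at 0 in TFH cells and at 1.69 in control CD4SP cells. All these comparisons use the same control average.

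**Figure D3:**
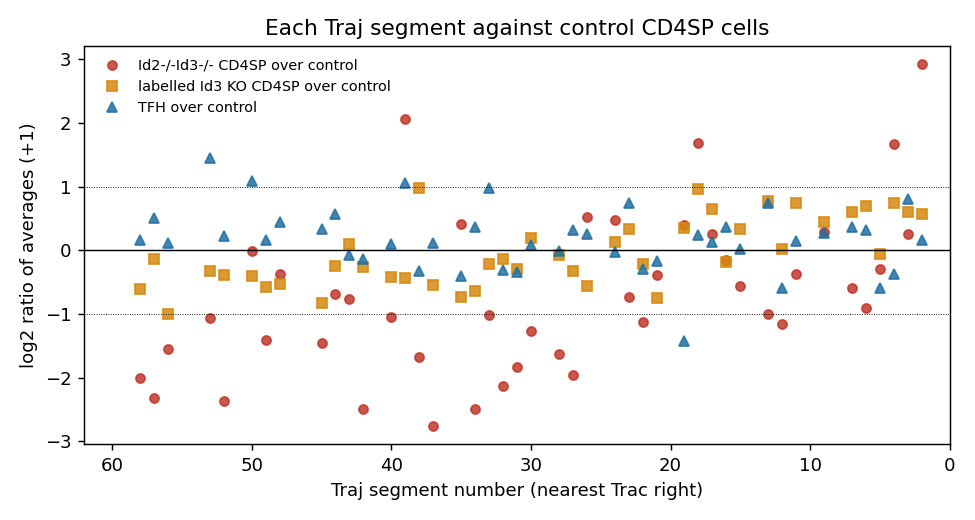
Log2 ratio to control CD4SP cells (y axis, with 1 normalized count added to both averages) of the 44 kept segments by segment number (x axis), for Id2-/-Id3-/- CD4SP cells (circles), the libraries labelled Id3 KO (squares) and TFH cells (triangles). Dotted lines mark 2-fold; 15 of the 21 circles from Traj31 on lie at or below the lower line, and 19 of the 21 squares there lie below 0.

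Traj2, the segment nearest Trac of those annotated as J genes, was the most used segment of Id2-/-Id3-/- CD4SP cells. It averaged 63.0 normalized counts in Id2-/-Id3-/- CD4SP cells, 2.59 in the lymphomas, 11.5 in the libraries labelled Id3 KO, 8.45 in TFH cells and 7.43 in control CD4SP cells. The log2 ratio of Id2-/-Id3-/- CD4SP to control CD4SP cells was 2.92. At the far end of the cluster, Traj58 averaged 0.29 normalized counts in Id2-/-Id3-/- CD4SP cells against 4.18 in control CD4SP cells, and it was listed at 0 in the lymphomas. Traj61, a pseudogene, was listed at 0 in Id2-/-Id3-/- CD4SP cells and had an average of 1.17 in control CD4SP cells.

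Traj18, the iNKT segment, was among the leading 3 in Id2-/-Id3-/- CD4SP cells, the lymphomas and the libraries labelled Id3 KO. It averaged 39.6 normalized counts in Id2-/-Id3-/- CD4SP cells (12.3% of Traj), 19.6 in the lymphomas (10.7%), 23.5 in the libraries labelled Id3 KO (6.68%), 13.9 in TFH cells (3.47%) and 11.6 in control CD4SP cells (3.32%). Its V partner Trav11 averaged 99.1 normalized counts in Id2-/-Id3-/- CD4SP cells, 152.2 in the lymphomas, 101.6 in the libraries labelled Id3 KO, 47.7 in TFH cells and 31.8 in control CD4SP cells, the same 3 groups above the other two. The near-identical Trav11d, whose reads may be divided uncertainly with Trav11, averaged 32.3 in Id2-/-Id3-/- CD4SP cells, 6.76 in the lymphomas and 18.5 in control CD4SP cells and was listed at 0 in the other groups. Zbtb16, which encodes PLZF, the transcription factor of innate-like T cells, averaged 3912 normalized counts in Id2-/-Id3-/- CD4SP cells, 2211 in the lymphomas, 733.1 in the libraries labelled Id3 KO, 48.2 in TFH cells and 116.3 in control CD4SP cells. By CD1d tetramer, the paper found few iNKT cells among the CXCR5-positive CD4SP cells of Id2-/-Id3-/- mice, most of which made PLZF. How much of the Traj18 level came from iNKT cells was not tested. Over the 5 groups, the segments whose log2 share was most like that of Traj18 were Traj4 (Pearson r = 0.83), Traj2 (r = 0.52) and Traj19 (r = 0.47), given as a description of 5 points.

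The groups with broad use had Traj23 in common among their leading segments. It was among the 3 most used segments of the libraries labelled Id3 KO, TFH cells and control CD4SP cells, and averaged 9.36 normalized counts in Id2-/-Id3-/- CD4SP cells, 4.12 in the lymphomas, 20.9 in the libraries labelled Id3 KO, 27.8 in TFH cells and 16.3 in control CD4SP cells. Traj22 led in control CD4SP cells, with 8.80 in Id2-/-Id3-/- CD4SP cells, 0.40 in the lymphomas, 17.2 in the libraries labelled Id3 KO, 16.4 in TFH cells and 20.3 in control CD4SP cells. Traj31 averaged 4.91 in Id2-/-Id3-/- CD4SP cells, 0.24 in the lymphomas, 16.1 in the libraries labelled Id3 KO, 15.6 in TFH cells and 20.0 in control CD4SP cells. Both Traj22 and Traj31 were thus at least 2-fold lower in Id2-/-Id3-/- CD4SP cells and the lymphomas than in control CD4SP cells. Traj27, next to Traj23 in TFH cells, averaged 2.93 in Id2-/-Id3-/- CD4SP cells, 0.95 in the lymphomas, 11.2 in the libraries labelled Id3 KO, 17.9 in TFH cells and 14.2 in control CD4SP cells. Traj17, among the leading 3 of the libraries labelled Id3 KO, averaged 13.1 in Id2-/-Id3-/- CD4SP cells, 1.15 in the lymphomas, 17.4 in the libraries labelled Id3 KO, 11.8 in TFH cells and 10.8 in control CD4SP cells.

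Traj33, the MAIT segment, was low throughout. It averaged 1.15 normalized counts in Id2-/-Id3-/- CD4SP cells, 0.11 in the lymphomas, 2.73 in the libraries labelled Id3 KO, 7.51 in TFH cells and 3.31 in control CD4SP cells. Its partner Trav1 averaged 12.0 normalized counts in Id2-/-Id3-/- CD4SP cells, 0.15 in the lymphomas, 16.2 in the libraries labelled Id3 KO, 17.1 in TFH cells and 17.8 in control CD4SP cells.

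The lymphomas used almost only 3 segments. Traj4 averaged 86.9 normalized counts in the lymphomas (47.3% of Traj), 29.5 in Id2-/-Id3-/- CD4SP cells, against 8.57 in control CD4SP cells. Traj30 averaged 61.2 in the lymphomas (33.3%), 2.79 in Id2-/-Id3-/- CD4SP cells, against 8.08 in control CD4SP cells. With Traj18 they made up 91.2% of the lymphoma level, and the next segment, Traj23, stood at 4.12 normalized counts (2.24%). Against control CD4SP cells, 2 of the 44 kept segments were at least 2-fold higher in the lymphomas (14.6% of all kept rows were) and 39 lower (23.8% were), 17 of the 39 listed at 0 in the lymphomas. With 5 normalized counts added, 25 segments were lower. Against Id2-/-Id3-/- CD4SP cells the same Traj4 and Traj30 were higher (9.76% of all kept rows were) and 31 segments lower (22.7%). Traj2 and Traj39, which led in Id2-/-Id3-/- CD4SP cells, averaged 2.59 and 0.53 normalized counts in the lymphomas. At these levels reads could not be assigned to single tumours, so whether Traj4 and Traj30 came from 1 tumour each or from several cannot be told from the average. The tumours also differ from CD4SP thymocytes in tissue, sort and age of the mice, and some may differ in Cre driver from the Id2-/-Id3-/- CD4SP cells. None of these can be told apart from the genotype and the tumour state.

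The reads per library showed how evenly a segment was used within Id2-/-Id3-/- CD4SP cells. For 56 of the 59 segments exactly 1 set of whole reads gave the average, and for TFH cells this held for 57. Traj17 had 2, 2 and 38 reads in libraries a, b and c of Id2-/-Id3-/- CD4SP cells, and Traj21 had 0, 2 and 28, so library c held 90.5% and 93.3% of their reads and gave 83.8% and 89.1% of their averages. Without library c the average was 3.19 normalized counts for Traj17 and 1.48 for Traj21. Traj4 had 4, 41 and 24 reads, with library b the highest although a read there was worth more than in library c. Traj50 went the other way, with 10, 1 and 3 reads. In TFH cells the same segments had 3, 12 and 19 reads for Traj17, 1, 16 and 15 for Traj21, 2, 9 and 7 for Traj4 and 22, 3 and 8 for Traj50, with library a also the one with the fewest Traj reads in all. Among segments with at least 10 reads and 1 set of reads, 7 of 14 in Id2-/-Id3-/- CD4SP cells and 5 of 37 in TFH cells had at least 60% of their reads in 1 library. Over all segments with 1 set of reads, libraries a, b and c held 106, 118 and 225 reads in Id2-/-Id3-/- CD4SP cells. In TFH cells they held 175, 375 and 409.

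**Figure D4:**
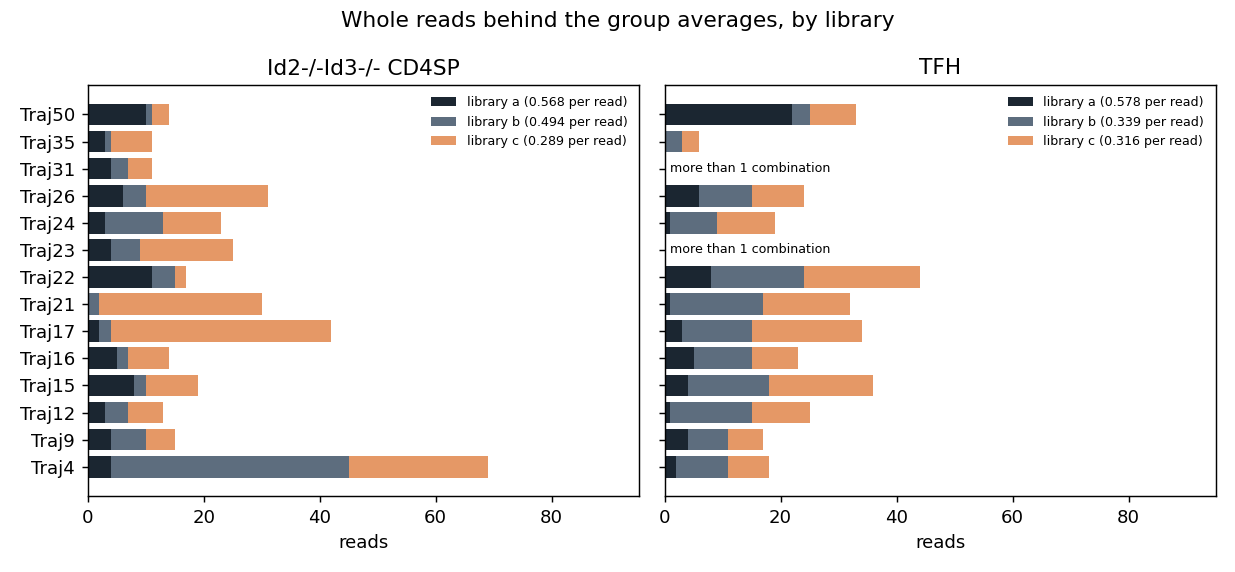
Whole reads (x axis) of the 14 segments with at least 10 reads and 1 set of reads in Id2-/-Id3-/- CD4SP cells (left), and of the same segments in TFH cells (right), stacked by library, with the worth of a read in normalized counts in the key. Traj17 and Traj21 are nearly all library c in Id2-/-Id3-/- CD4SP cells (38 of 42 and 28 of 30 reads), while in TFH cells their reads lie in libraries b and c. Segments with more than 1 possible set of reads are marked and not drawn.

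The leading segments had more than 1 possible set. The average of Traj18 in Id2-/-Id3-/- CD4SP cells was met by 18, 15 and 76 reads in libraries a, b and c or by 21, 32 and 41. Under any set of reads for the open segments, Traj18 took 7.35% to 14.8% of the Traj reads of library a, 5.62% to 20.6% of library b and 7.93% to 22.7% of library c, against 3.03% to 3.52%, 3.80% to 4.13% and 3.09% to 3.25% in the 3 TFH libraries. Its share was thus higher in every Id2-/-Id3-/- CD4SP library than in every TFH library. For Traj2, 5 sets were possible, among them 63, 20 and 60 reads and 9, 2 and 197 reads, so its spread over the libraries could not be settled. For Traj39, 3 sets were possible, and each placed at least 50 reads in a single library. In TFH cells Traj39 had 7, 18 and 22 reads.

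The 3′ share could also be read within libraries over the 54 segments that had 1 set of reads in both groups, which leave out Traj2, Traj18, Traj23, Traj31 and Traj39. Segments up to Traj30 held 63 of 98 reads in library a of Id2-/-Id3-/- CD4SP cells (64.3%, Wilson 95% interval 54.4% to 73.1%), 97 of 110 in library b (88.2%, 80.8% to 93.0%) and 175 of 205 in library c (85.4%, 79.9% to 89.6%). In TFH cells they held 64 of 158 reads in library a (40.5%, 33.2% to 48.3%), 199 of 338 in library b (58.9%, 53.6% to 64.0%) and 203 of 355 in library c (57.2%, 52.0% to 62.2%). Over these 54 segments, the 3 Id2-/-Id3-/- CD4SP values lay above the 3 TFH values. However, the interval of library a of Id2-/-Id3-/- CD4SP cells overlaps those of TFH libraries b and c. Over all segments, the 3′ share depended on the set of reads taken for the open segments. In library a of Id2-/-Id3-/- CD4SP cells it reached 77.4%, but under some sets it fell below TFH libraries b and c. Those held at least 55.9% and 57.5%. Libraries b and c of Id2-/-Id3-/- CD4SP cells held at least 64.3% and 74.5%, above the highest TFH value of 60.1%. The Wilson intervals take each read as an independent molecule, which reads are not, so they may be too narrow. They also leave out the spread between animals. Over the 54 segments, the effective number was 23.3, 12.0 and 17.3 in the Id2-/-Id3-/- CD4SP libraries and 25.7, 36.0 and 33.8 in the TFH libraries. These values rest on 98 to 205 reads in Id2-/-Id3-/- CD4SP cells and 158 to 355 in TFH cells. The TFH and Id2-/-Id3-/- CD4SP cells also differ in organ, so genotype and cell type cannot be told apart in this comparison, and the control libraries could not be read in the same way.

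Genes of V(D)J recombination were counted in the same way. Of 14 genes on a list of the recombinase and the end-joining machinery, 1 was at least 2-fold higher and 0 lower in Id2-/-Id3-/- CD4SP cells than in control CD4SP cells, 3 higher and 2 lower in the lymphomas, 0 and 0 in the libraries labelled Id3 KO, and 1 higher and 3 lower in TFH cells. Over all kept rows the shares higher and lower were 13.9% and 10.6% in Id2-/-Id3-/- CD4SP cells, 14.6% and 23.8% in the lymphomas, 5.14% and 9.29% in the libraries labelled Id3 KO, and 10.8% and 12.0% in TFH cells, and nothing is read from counts this near to them. Rag1 and Rag2 encode the recombinase. Rag1 averaged 13.4 normalized counts in Id2-/-Id3-/- CD4SP cells, 0.42 in the lymphomas, 8.88 in the libraries labelled Id3 KO, 1.23 in TFH cells and 14.2 in control CD4SP cells, and Rag2 averaged 2.45 or less in every group. Lig4, the ligase that seals the joints, was the gene counted as higher in Id2-/-Id3-/- CD4SP cells, at 552.2 against 247.9 normalized counts in control CD4SP cells. Dntt, which adds bases to the joints, averaged 219.8 in Id2-/-Id3-/- CD4SP cells, 481.6 in the lymphomas, 10.1 in TFH cells and 326.0 in control CD4SP cells.

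Genes listed as bearing on Jα use in CD4+CD8+ thymocytes differed in both directions or little, and nothing is read from them as a set. Bcl2l1 encodes a survival factor of these cells, whose life span bounds the time left for late rearrangement, and averaged 314.8 normalized counts in Id2-/-Id3-/- CD4SP cells against 751.3 in control CD4SP cells. Myb, a regulator of the same stage, averaged 6351 in Id2-/-Id3-/- CD4SP cells, 6336 in the lymphomas and 1614 in the libraries labelled Id3 KO, against 694.2 in control CD4SP cells. Egr2, a target of receptor signalling, averaged 3379 in Id2-/-Id3-/- CD4SP cells against 1173 in control CD4SP cells. In the same 2 groups Tcf12 averaged 1792 against 1728, Egr1 5607 against 4829, Tcf3 1856 against 3084 and Tcf7 13671 against 27336. These levels are those of sorted CD4SP cells, in which rearrangement of the locus has already ended.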

How the data were processed

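RNA-seq was done on 20 samples in 5 groups, taken from the sample labels. Strand-specific reads were aligned by the authors to mm10 (OSA, Array Studio), quantified with RSEM and normalized with DESeq, of which the versions are not stated in the sources read. The deposited signal is the authors' average of normalized counts per gene and group. It also held 12 columns of the authors' own comparisons (folds, p-values and false discovery rates), which were not used, and 0 columns per library, so the planned model fit was not run and nothing was tested.

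Shares were taken within the 59 Traj averages. Ratios had 1 normalized count added, and rows were kept at a mean of at least 1. Whole reads per library were solved from the averages within 7e-05 after the amounts were estimated from rows below 1, and the solver was tested on simulated data. Segments named are the 3 most used of each group, Traj18, Traj33, the cluster ends and the 3 most like Traj18, with examples chosen after their values were seen. Members and lists were chosen with earlier results of these data known. Alternatives were a boundary at 20 or 40, the most used segment left out, division by length, other pseudocounts and filters and the inverse Simpson index. Python 3.11.15, numpy 2.4.6, pandas 2.3.3 and matplotlib 3.10.9 were used, with GENCODE M21. Of the list of genes that bear on Jα use only some values are given, and its counts and 1 gene are not reported here.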

Additional observations from a re-analysis of the deposited data

How the results depend on the processing

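No paired analysis was possible because the table holds group averages with no values per library. For the same reason no test was run. Of 157 alternatives tried over 29 results, 128 stayed within 1.5 times the reported value, and the cause of the others was not tested where their construction does not give it. With the boundary moved to segment 20, the 3′ share was 61.6% in the lymphomas, 44.5% in the libraries labelled Id3 KO, 28.5% in TFH cells and 30.4% in control CD4SP cells. The effective number in Id2-/-Id3-/- CD4SP cells was 11.9 as an inverse Simpson index. In the lymphomas it was 11.7 with 1 count added to every segment and 2.49 without Traj2, Traj4, Traj18 and Traj39 (this choice was made after seeing the data), and their mean segment number was 25.8 without Traj4. With a pseudocount of 5, segments at least 2-fold lower numbered 8 in Id2-/-Id3-/- CD4SP cells, 25 in the lymphomas and 0 in TFH cells against control CD4SP cells, and 10 in the lymphomas against Id2-/-Id3-/- CD4SP cells, and those higher in TFH cells numbered 0. With a mean of at least 5 required, the lower segments numbered 10, 21, 0 and 19 in the same order. Without a filter TFH cells had 3 lower segments. For the libraries labelled Id3 KO a pseudocount of 0.5 gave 1 higher and 1 lower segment, and shares within Traj gave 1 lower, while TFH cells then had 1 higher.

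Leaving out each library in turn, an alternative added after seeing the data and possible only where whole reads were recovered, kept the 3′ share of Id2-/-Id3-/- CD4SP cells between 64.1% and 89.8% and that of TFH cells between 51.7% and 60.1%. The effective number was between 15.3 and 25.3 in Id2-/-Id3-/- CD4SP cells and between 35.0 and 39.9 in TFH cells. Segments at least 2-fold higher than in control CD4SP cells numbered 2 to 4 in Id2-/-Id3-/- CD4SP cells and 2 to 5 in TFH cells, and those at least 2-fold lower 20 to 25 in Id2-/-Id3-/- CD4SP cells and 1 to 2 in TFH cells. Many segments rest on under 10 reads in a group, which limits what a single one can show.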

Other observations

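The Traj profile of a group could also be set beside each other profile as the share of the level that would have to move to other segments to make them equal. Between Id2-/-Id3-/- CD4SP and control CD4SP cells this share was 47.3%, between the lymphomas and control CD4SP cells 83.1%, between the libraries labelled Id3 KO and control CD4SP cells 17.4%, and between TFH and control CD4SP cells 13.9%. Between the lymphomas and Id2-/-Id3-/- CD4SP cells it was 70.8%. Single libraries of 1 group differed too. Over the possible sets of reads, pairs of Id2-/-Id3-/- CD4SP libraries differed by 33.2% to 63.0% and pairs of TFH libraries by 16.2% to 40.4%. The libraries held 138 to 552 Traj reads in Id2-/-Id3-/- CD4SP cells and 199 to 453 in TFH cells, and the part of these unequal numbers in the differences was not tested. TFH library a stood apart from TFH libraries b and c, which differed from each other by 16.2% to 17.9%, and it had the lowest 3′ share (42.3% to 49.8%, against at least 55.9% in library b and 57.5% in library c).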
